A study of Mus musculus with 6 samples.

Results

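Transcripts for the proteins that coat, fill and empty lipid droplets were examined in cultured control microglia and in microglia targeted for deletion of REV-ERBα. The 10 genes were given by symbol as the triglyceride and cholesteryl ester droplet genes, and all 10 were found among the 55487 genes of the files. They comprise the coat proteins Plin2 and Plin3, the storage enzymes Dgat1, Dgat2 and Soat1, and the lipolysis genes Pnpla2, Abhd5, Hilpda, Lipe and Mgll. Of these, 9 passed the filter on low values (above 1 CPM, the reads on a gene scaled by those of its library, in 4 libraries or more) and Dgat2 did not. Both groups were primary cortical microglia of CAG::CreERT2; Nr1d1 fl/fl pups at P1-3, 3 Cre- control cultures and 3 Cre+ (REV-ERBα KO) cultures, each sequenced as 1 library. All 6 received 1.5 μM 4-hydroxytamoxifen (4-OHT) for 2 days per the labels, so the groups differ in the CreERT2 transgene and not in the drug. The CAG promoter is active in most cell types, so CreERT2 was not limited to microglia. Per the study's methods, such microglia float off mixed glial cultures grown with GM-CSF, so other glia shared the dish during growth. The labels do not say how many pups or litters the cultures came from, and the p-values below measure only the spread between these libraries, which may be partly technical.

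A lipid droplet is a core of neutral lipid, mainly triglyceride and cholesteryl ester, under a single layer of phospholipid that carries coat proteins. DGAT enzymes make triglyceride from diacylglycerol and SOAT1 makes cholesteryl ester from cholesterol, whereas the lipases ATGL, HSL and MGL release fatty acids from triglyceride, diacylglycerol and monoacylglycerol in turn. Microglia that take up myelin or debris, and microglia in aged or diseased brain, are known to store such droplets. REV-ERBα, encoded by Nr1d1, is a nuclear receptor of the circadian clock that represses genes carrying its response element, the RORE.

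The 6 libraries held 87545868 to 110909129 counts on genes, and normalization factors between libraries stayed within 0.986 to 1.01. Over all 11429 genes tested, 579 were called between Cre+ and Cre- (5.07%) by edgeR's quasi-likelihood test at an adjusted p of at most 0.05, 286 of them higher (2.50%) and 293 lower (2.56%). Cre- cultures held 2.35, 1.20 and 1.64 CPM of Nr1d1 and Cre+ cultures 1.00, 0.945 and 1.08 CPM, counted over the whole gene including exons outside the floxed exons 3 to 5. All Cre+ values were lower, yet the difference of -0.77 on the log2 scale (SE 0.25) was not called (adjusted p = 0.094 by edgeR). Leaving out the first Cre- library gave -0.50 (adjusted p = 0.31), leaving out the second gave -0.98 and a call (adjusted p = 0.041), and the other 4 libraries left out in turn gave no call (adjusted p = 0.16 to 0.22). Of the 9 microglia markers, Trem2 and Csf1r were abundant. Ptprc (mean of 273 CPM in Cre-), Itgam (102 CPM), C1qa (40.1 CPM) and Cx3cr1 (9.4 CPM) lay between. P2ry12 (0.394 to 0.998 CPM), Tmem119 (1.82 to 3.49 CPM) and Aif1 (2.35 to 3.19 CPM) were low. Their counts per library were 35 to 92, 186 to 328 and 206 to 300. Summed microglia markers were 2440 to 2500 CPM in Cre- and 2490 to 2570 CPM in Cre+ libraries, which overlapped. Most of the sum was Trem2 (means of 1580 CPM in Cre- and 1600 CPM in Cre+). Of the 8 microglia markers tested, 1 was called higher in Cre+ and 0 lower, beside 2.50% and 2.56% of all genes. The 5 endothelial markers summed to 20.2 to 22.4 and 24 to 27.5 CPM, nearly all of it Flt1, with Cldn5 and Cdh5 at 0 in at least 1 library. Mean Flt1 was 19.7 CPM in Cre- and 24.9 CPM in Cre+. The rest of the list had lower means in Cre+, namely Kdr (1.2 and 0.947 CPM), Pecam1 (0.468 and 0.268 CPM), Cdh5 and Cldn5. Of the 2 endothelial markers tested, 1 was called higher in Cre+ and 0 lower, again beside 2.50% and 2.56% of all genes. The 6 neuronal markers summed to 2.80 to 3.75 CPM in Cre- and 2.03 to 2.12 CPM in Cre+ libraries, and the 7 fibroblast and mural markers to 1.45 to 2.64 and 0.918 to 1.09 CPM. The endothelial, neuronal, and fibroblast and mural sums did not overlap between the groups, while the sums of the 8 astrocyte markers (11.3 to 14.9 CPM over all libraries) and the 8 oligodendrocyte lineage markers (79.9 to 92.2 CPM) did. Among single genes, 24.0% of all those tested had groups that did not overlap. The astrocyte sum was nearly all Aldh1l1 (9.8 to 13.5 CPM). Nearly all of the oligodendrocyte lineage sum was Cspg4 (40.6 to 49.1 CPM), Mbp (25 to 33.2 CPM) and Mag (9.55 to 11 CPM). Gfap and Aqp4 had at most 37 and 11 counts, and Olig1, Olig2 and Mog reached 0 in some libraries. The part of these cells and sums in the differences below was not tested. In bulk RNA, fewer cells of a type and less RNA per cell cannot be told apart.

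The plot of levels by library gives the 10 genes in reads per kilobase (FPKM), a scale that allows for gene length. The length is that of all exons annotated for a gene, not of the transcripts expressed, so close ranks depend on it.

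**Figure D1:**
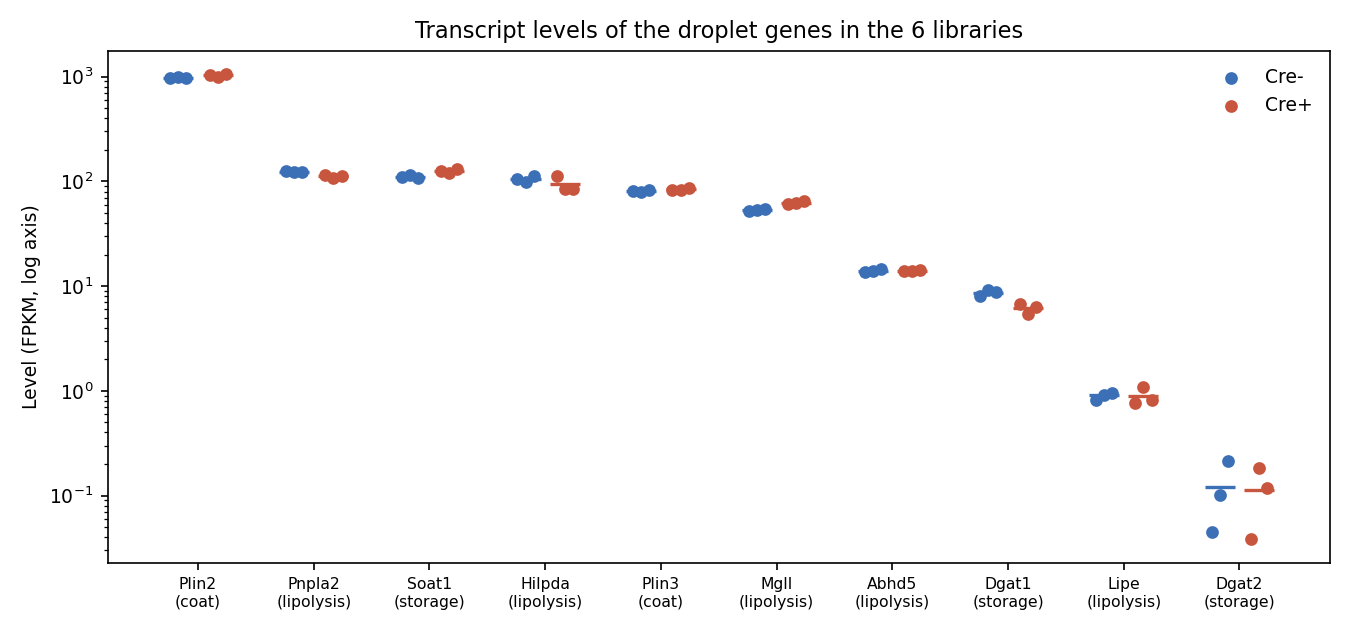
Level of each droplet gene in FPKM on a log axis, with 1 point per library, Cre- in blue and Cre+ in red, and bars at the group means of 3 libraries. Plin2 lies at 970.5 to 1060 FPKM, 5 genes lie between 52.0 and 132 FPKM, and Dgat2 scatters from 0.0380 to 0.215 FPKM.

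In Cre- microglia, Plin2 was by far the most abundant of the 10, at 975 ± 6.83 FPKM (SD, n = 3), which placed it 48th among all genes tested. Pnpla2 followed at 124 ± 0.595 FPKM, and Plin2 exceeded it 7.86-fold. Then came Soat1 (110 ± 3.83 FPKM), Hilpda (105 ± 6.47 FPKM), Plin3 (80.9 ± 0.997 FPKM) and Mgll (53.1 ± 1.00 FPKM). Of these neighbours, Soat1 and Hilpda overlapped within the Cre- libraries and could not be ordered. Pnpla2 lay above Soat1 in all 3 Cre- libraries and below it in all 3 Cre+ libraries. A lower tier held Abhd5 (14.0 ± 0.438 FPKM) and Dgat1 (8.64 ± 0.604 FPKM). Lipe reached 0.902 ± 0.0703 FPKM, 9.58-fold below Dgat1, and Dgat2 0.120 ± 0.0867 FPKM. From Plin3 down to Dgat2 the order was the same in all 6 libraries. Lipe, the hormone-sensitive lipase gene, had 422 to 595 counts per library and Dgat2 had 12 to 61.

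Promoter sequence was read for 8 of the 10 genes, which had 11 windows of 250 bases before to 50 after a RefSeq start site (GRCm38.p6); Dgat1 and Dgat2 had none. The windows were searched on both strands for the RORE core TAGGTCA, its extended form with AA and any base before the core, the nuclear receptor half-site AGGTCA (which the RORE core contains), direct repeats of the half-site spaced by 1 or 2 bases, and the E-box CACGTG bound by the clock activators. Windows for 3 genes are shown because Plin2 holds the only RORE core among the 11 windows, and because Soat1 and Mgll are the members that rose. Each runs 5′ to 3′ on the gene's own strand from 250 bases before the start site to 10 bases past it, with motif matches in capitals.
Plin2 (chr4:86670050-86670309, minus strand): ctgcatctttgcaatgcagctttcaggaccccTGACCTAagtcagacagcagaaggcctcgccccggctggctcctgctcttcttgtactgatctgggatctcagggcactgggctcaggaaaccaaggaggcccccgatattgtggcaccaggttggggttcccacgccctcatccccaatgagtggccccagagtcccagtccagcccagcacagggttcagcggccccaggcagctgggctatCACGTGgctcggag
Soat1 (chr1:156474319-156474578, minus strand): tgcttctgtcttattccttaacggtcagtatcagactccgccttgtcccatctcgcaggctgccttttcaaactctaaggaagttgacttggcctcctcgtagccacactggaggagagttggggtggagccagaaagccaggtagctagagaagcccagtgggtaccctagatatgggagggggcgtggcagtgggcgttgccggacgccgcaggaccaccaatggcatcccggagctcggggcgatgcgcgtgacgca
Mgll (chr6:88724162-88724421, plus strand): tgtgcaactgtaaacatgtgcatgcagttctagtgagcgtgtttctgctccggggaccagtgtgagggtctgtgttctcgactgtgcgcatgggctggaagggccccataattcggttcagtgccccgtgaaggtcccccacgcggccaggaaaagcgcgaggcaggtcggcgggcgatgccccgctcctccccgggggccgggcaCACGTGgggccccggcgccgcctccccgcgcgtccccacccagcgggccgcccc

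In the Plin2 window, the RORE core lies on the opposite strand (printed as TGACCTA) with its first base at -218 from the start site, and an E-box lies at -4. The Mgll window shown holds an E-box at -44 and no RORE core, and the Soat1 window holds none of these motifs. Mgll's other window, at another start site, had no match. Elsewhere, Lipe had an E-box at -155 in 1 window and no match in its other, and Abhd5 had a half-site at -69. The windows of Plin3, Pnpla2 and Hilpda had no match. Among 32851 windows of the same length from all genes, 2.61% held the RORE core, 0.219% its extended form, 16.3% the half-site and 7.15% the E-box. The repeats spaced by 1 and 2 bases were in 0.0396% and 0.00913% of the windows and in none of the members. The extended RORE was likewise in no window of a member, that of Plin2 included. A match in letters is a description and does not show that a factor binds there.

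Of the 9 genes tested between Cre+ and Cre-, 2 rose (Mgll and Soat1), 1 fell (Dgat1) and 6 did not pass the test, beside 5.07% of all genes called. A count of 3 in 9 (33.3%) is above that background, but the genes were chosen by name with earlier results known, and no test was made of the list. The median log2 fold change of the 9 genes was 0.00217, beside 0.00233 over all genes, and the median of its size was 0.142, beside 0.107. An unadjusted p below 0.05 was found for 5 of the 9, beside 2188 of all genes (19.1%), and DESeq2 called 4, beside 886 (7.75%), while limma called 3, beside 572 (5.00%). The groups did not overlap for 6 of the 9, whereas 24.0% of all genes tested had groups that did not overlap. The shifts lay on both sides of 0, from -0.49 for Dgat1 to 0.24 for Mgll on the log2 scale.

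**Figure D2:**
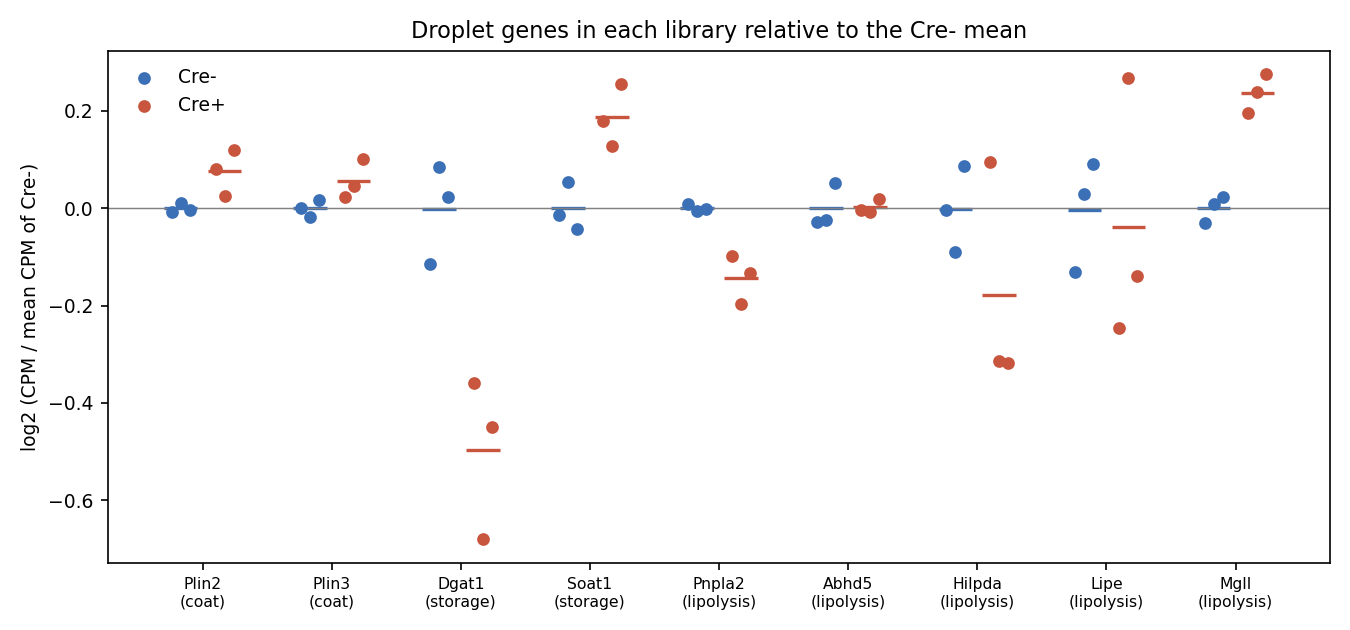
Each of the 9 tested droplet genes in each library as log2 of its CPM over the mean CPM of the Cre- libraries, with 1 point per library, Cre- in blue and Cre+ in red, and bars at the group means. All 3 Cre+ points of Dgat1 lie below and all 3 of Soat1 and Mgll lie above the Cre- points, while Abhd5, Hilpda and Lipe overlap.

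The coat genes differed by 5.41% or less between the group means, and neither was called. Plin2 encodes perilipin 2, which covers droplets in most cells outside fat tissue and is widely used as their marker (ENSMUSG00000028494, chr4:86648386-86670060, minus strand, GRCm38). The 3 Cre- libraries held 3408, 3452 and 3414 CPM and the 3 Cre+ libraries 3622, 3487 and 3721 CPM. Every Cre+ library was above every Cre- library, though the second Cre+ library lay close to the second Cre- library. The log2 fold change was 0.08 (SE 0.035, 95% confidence interval 0.00 to 0.15) with an unadjusted p of 0.048 and an adjusted p of 0.26 by edgeR. With no filter on expression Plin2 was called at 0.15 (adjusted p = 0.041), under a scaling in which the median over all genes tested also moved up by 0.0785. A stretch of 259 bases of Plin2 is 96.1% identical to the gene model Gm12551, whose counts amounted to 0.461% to 0.542% of those of Plin2 in each library.

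Plin3 encodes perilipin 3, a coat protein that also occurs free in the cytosol and binds small, newly formed droplets (ENSMUSG00000024197, chr17:56277476-56292873, minus strand). Its levels were 306, 303 and 310 CPM in Cre- and 312, 316 and 329 CPM in Cre+ libraries, which did not overlap. The log2 fold change of 0.06 (SE 0.042, 95% confidence interval -0.03 to 0.15) was not called, with an adjusted p of 0.51 by edgeR. Short stretches of Plin3, of at most 135 bases, are at least 95% identical to parts of 57 other genes, and reads there could be split between genes. The ratio of Plin2 to Plin3 per kilobase, on the log2 scale, was 3.59 ± 0.0265 in Cre- and 3.61 ± 0.0385 in Cre+ libraries (SD, n = 3). Neither coat gene was called by DESeq2 or by limma, and 1 of the 2, Plin2, had an unadjusted p below 0.05 in edgeR.

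The storage enzymes moved in opposite directions. Dgat1 encodes diacylglycerol O-acyltransferase 1, which joins the last fatty acid to diacylglycerol in the last step of triglyceride synthesis (ENSMUSG00000022555, chr15:76502015-76511953, minus strand). Its level was 24.4, 28.0 and 26.9 CPM in Cre- and 20.6, 16.5 and 19.3 CPM in Cre+ libraries, from 1534 to 2587 counts each. The highest Cre+ library lay below the lowest Cre- library. Dgat1 fell by 0.49 on the log2 scale (SE 0.091, 95% confidence interval -0.68 to -0.30), that is to 0.712 of the Cre- level, with an adjusted p of 0.0052 by edgeR. It was called in all 6 fits that each left out 1 library, in which the log2 fold change ranged from -0.56 to -0.40, and in all 7 other settings. Among the 579 called genes, 29.0% changed by more than Dgat1 in either direction, and the median size of change was 0.35 on the log2 scale.

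Dgat2 encodes the other, structurally unrelated DGAT enzyme, which is the main one in liver and fat (ENSMUSG00000030747, chr7:99153658-99182719, minus strand). It had 12, 29 and 61 counts in Cre- and 13, 53 and 37 in Cre+ libraries, or 0.117 to 0.662 CPM of the library totals. The counts differed several-fold within each group and the groups overlapped (exact 2-sided permutation p = 1.0, n = 3 in each group), so no difference was detectable beyond this spread. With no filter on expression its log2 fold change was -0.04 (adjusted p = 0.985 by edgeR). Per kilobase, Dgat1 exceeded Dgat2 by 6.43 ± 1.08 log2 units in Cre- and by 6.02 ± 1.32 in Cre+ libraries, so nearly all DGAT transcript in both groups was Dgat1.

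Soat1 encodes sterol O-acyltransferase 1, which esterifies cholesterol for storage and is the main such enzyme of macrophages (ENSMUSG00000026600, chr1:156424525-156474331, minus strand). It was at 1072, 1124 and 1051 CPM in Cre- and at 1225, 1183 and 1291 CPM in Cre+ libraries. Again the groups did not overlap, in the direction opposite to Dgat1. Soat1 rose by 0.19 on the log2 scale (SE 0.043, 95% confidence interval 0.10 to 0.28), a 1.14-fold difference, with an adjusted p of 0.018 by edgeR. The call depended on single libraries, and was lost without the first Cre- library (0.17, adjusted p = 0.067), the third Cre- library (0.17, adjusted p = 0.090) or the third Cre+ library (0.15, adjusted p = 0.083), although it was kept in all 7 other settings. Most called genes (93.8%) changed by more than Soat1. Parts of Soat1 are at least 95% identical over 100 bases or more to 29 other genes.

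Within lipolysis, the last enzyme of the pathway rose and the first did not pass the test. Pnpla2 encodes adipose triglyceride lipase (ATGL), which takes the first fatty acid from triglyceride (ENSMUSG00000025509, chr7:141455198-141460743, plus strand). Its level was 377, 373 and 374 CPM in Cre- and 350, 327 and 342 CPM in Cre+ libraries. The Cre- libraries were close together (coefficient of variation 0.479%) and all 3 Cre+ libraries were lower. The log2 fold change was -0.14 (SE 0.042, 95% confidence interval -0.23 to -0.05) with an adjusted p of 0.066 by edgeR, and DESeq2 called it at -0.15 (adjusted p = 0.019).

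ATGL is switched on by ABHD5 (CGI-58) and held back by HILPDA, a small protein induced by low oxygen and by fatty acids. Abhd5 (ENSMUSG00000032540, chr9:122351608-122381524, plus strand) was at 81.9, 82.1 and 86.5 CPM in Cre- and 83.2, 83.1 and 84.6 CPM in Cre+ libraries. The 2 ranges overlapped, and the log2 fold change was 0.00 (95% confidence interval -0.10 to 0.11, adjusted p = 0.99 by edgeR). Of its exonic bases, 16.0% are shared with the antisense gene A730085K08Rik, which had at most 10 counts in a library. Hilpda (ENSMUSG00000043421, chr6:29272488-29275446, plus strand) was at 116, 109 and 123 CPM in Cre- and 124, 93.4 and 93.2 CPM in Cre+ libraries. The first Cre+ library was as high as the highest Cre- library and the other 2 were below all Cre- libraries. With all 6 libraries the log2 fold change was -0.16 (SE 0.089, 95% confidence interval -0.35 to 0.02, adjusted p = 0.34 by edgeR). Without that first Cre+ library it was -0.32 and was called (adjusted p = 0.0095), so a single library decided the result for Hilpda.

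Lipe encodes hormone-sensitive lipase, which acts on diacylglycerol and cholesteryl ester (ENSMUSG00000003123, chr7:25379527-25398710, minus strand). It was low in every library, at 4.85, 5.42 and 5.66 CPM in Cre- and 4.48, 6.39 and 4.82 CPM in Cre+. The groups overlapped, and the log2 fold change of -0.02 (SE 0.15, 95% confidence interval -0.35 to 0.31, adjusted p = 0.96 by edgeR) allows a change of the size of Mgll or Soat1 but not one of the size of Dgat1. Of the exonic bases of Lipe, 15.6% are shared with the antisense gene 4732471J01Rik, and the library kit does not mark strand, so reads there cannot be told apart.

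Mgll encodes monoacylglycerol lipase, which splits monoacylglycerol and also breaks down the endocannabinoid 2-arachidonoylglycerol (ENSMUSG00000033174, chr6:88724412-88828360, plus strand). It was at 264, 271 and 274 CPM in Cre- and 309, 318 and 326 CPM in Cre+ libraries. The gap between the groups was wider than the range within either. Mgll rose by 0.24 on the log2 scale (SE 0.042, 95% confidence interval 0.15 to 0.33), a 1.18-fold difference, with an adjusted p of 0.0038 by edgeR. The call held in all 6 fits that each left out 1 library (0.21 to 0.26) and in all 7 other settings. Of the called genes, 78.1% changed by more. Mgll shares 3.29% of its exonic bases with the antisense gene Gm26588, and reads there also cannot be told apart by strand. Among the 5 lipolysis genes, 1 was called by edgeR, beside 5.07% of all genes tested. Mgll and Pnpla2 had an unadjusted p below 0.05, beside 19.1% of all genes, and the same 2 were called by DESeq2, beside 7.75%.

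**Figure D3:**
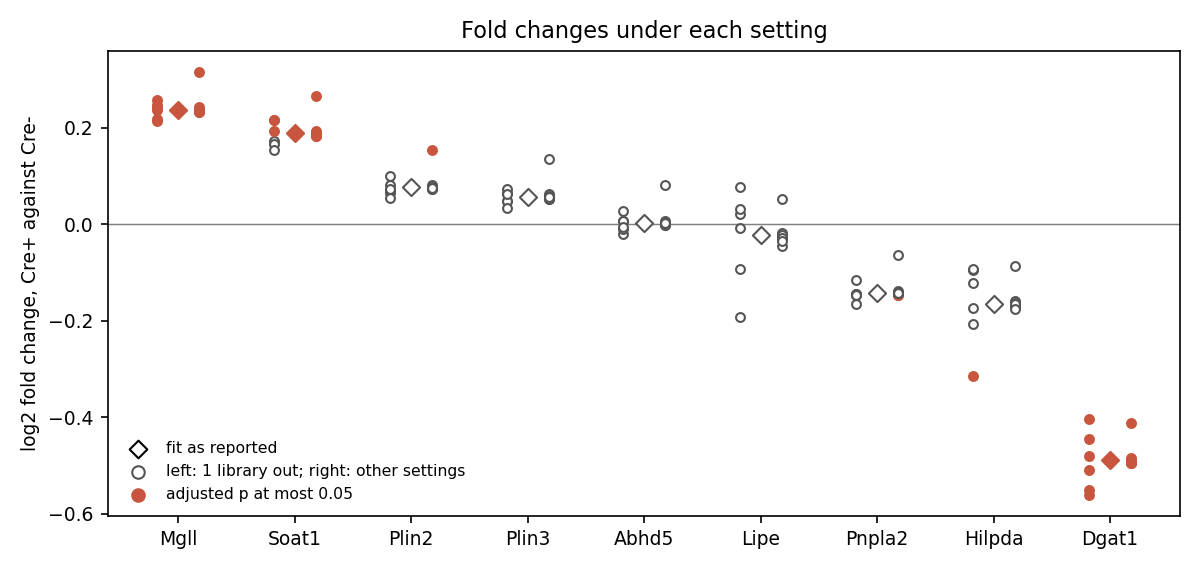
Log2 fold change of each tested droplet gene, Cre+ against Cre-, in the fit reported here (diamonds), with 1 library left out (left circles) and under 7 other settings (right circles), filled red where the adjusted p was at most 0.05. Mgll and Dgat1 are red in every setting, Soat1 loses its call in 3 of the 6 fits without 1 library, and the Abhd5 and Lipe points lie on both sides of 0.

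Ratios between genes within a library do not depend on how libraries are scaled to each other. They were computed per kilobase for 6 pairs, of which 5 joined members and 1 set Soat1 against Nceh1, a gene from outside the 10. Each ratio restates the differences of its own genes between the groups and is not separate support for them. With 3 libraries in each group an exact 2-sided permutation test cannot give a p below 0.1, and p-values were adjusted over the 6 ratios.

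**Figure D4:**
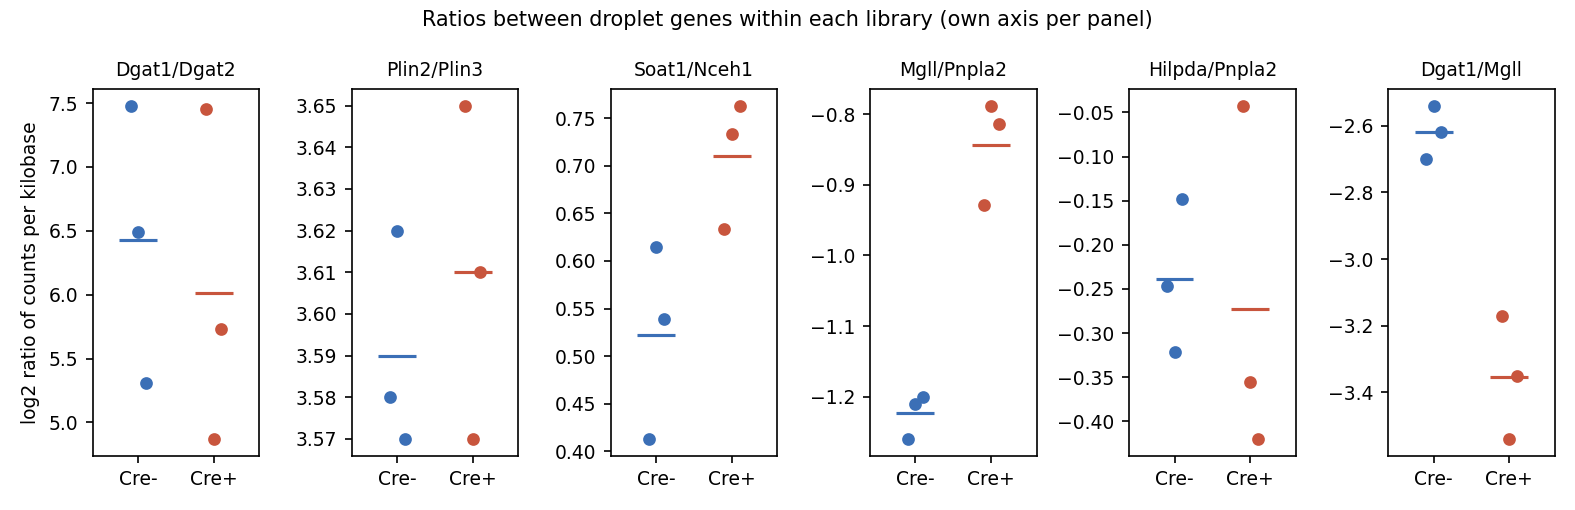
Log2 ratio of counts per kilobase for 6 gene pairs in each library, with 1 panel and its own vertical axis per pair, Cre- in blue, Cre+ in red and bars at the means of 3 libraries. Cre+ and Cre- points are separate for Soat1 to Nceh1, Mgll to Pnpla2 and Dgat1 to Mgll, and mixed for the other 3 pairs.

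Dgat1 relative to Mgll, the called member that fell against the one that rose most, was -2.70, -2.54 and -2.62 on the log2 scale in Cre- and -3.17, -3.54 and -3.35 in Cre+ libraries. As a linear ratio of reads per kilobase this is 0.162 Dgat1 to 1 Mgll in Cre- and 0.0978 in Cre+ microglia. The difference of -0.73 log2 units was the widest among the 3 pairs whose groups did not overlap (exact permutation p = 0.1, the smallest possible, adjusted p = 0.2).

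Mgll relative to Pnpla2, the last against the first lipase, was -1.26, -1.21 and -1.20 in Cre- and -0.929, -0.788 and -0.814 in Cre+ libraries. This ratio was 0.38 log2 units higher in Cre+ (exact permutation p = 0.1, adjusted p = 0.2), with no overlap. Soat1 relative to Nceh1, the hydrolase that removes cholesteryl ester in macrophages, was 0.522 ± 0.102 in Cre- and 0.710 ± 0.0676 in Cre+ libraries, again without overlap (difference 0.19, exact permutation p = 0.1, adjusted p = 0.2). The other ratios overlapped. Plin2 to Plin3 differed by 0.0189 log2 units (exact permutation p = 0.6), Hilpda to Pnpla2 by -0.0336 (p = 0.8) and Dgat1 to Dgat2 by -0.41 (p = 0.7), each with an adjusted p of 0.8.

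The rest of the pathway was described with 56 genes in 6 lists, of which 37 were tested. Of these, 2 rose (Lpl and Acsl4) and none fell, 5.41% beside 5.07% of all genes tested, so the share was near the background. Their median log2 fold change was -0.0177 and the median size 0.0955.

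**Figure D5:**
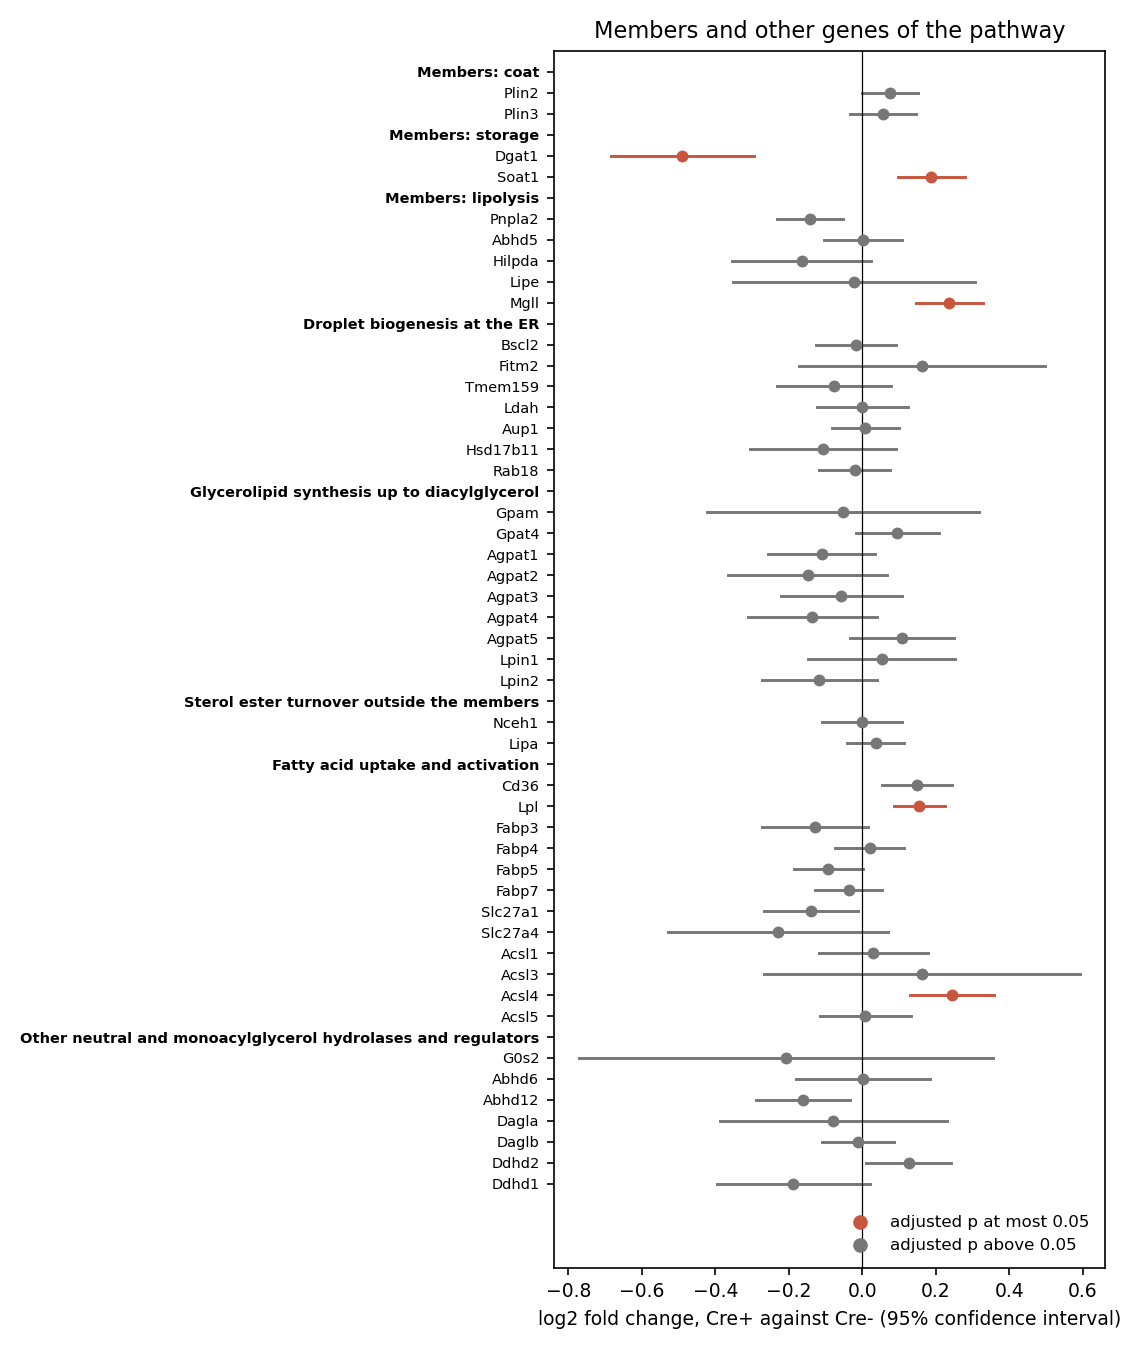
Log2 fold change with its 95% confidence interval for the 9 tested droplet genes and 37 other genes of the pathway, grouped by role, with genes called at an adjusted p of at most 0.05 in red. Red points are Dgat1, Soat1 and Mgll among the members and Lpl and Acsl4 among the others.

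Both genes that rose take in or activate fatty acids, a list of 13 genes with 12 tested. The share called in this list was 16.7%, beside 5.07% of all genes, and no test was made of the list. Lpl, the lipoprotein lipase that frees fatty acids outside the cell, was at 3835, 3914 and 3784 CPM in Cre- and 4286, 4263 and 4299 CPM in Cre+ libraries. It rose by 0.16 on the log2 scale (SE 0.033, adjusted p = 0.012 by edgeR), and without the third Cre- library it was at 0.14 and lost its call (adjusted p = 0.060). Acsl4, which couples polyunsaturated fatty acids to coenzyme A, was at 126, 129 and 131 CPM in Cre- and 164, 142 and 152 CPM in Cre+ libraries. It rose by 0.24 (SE 0.054, adjusted p = 0.015), a call lost without the first Cre- library (0.22, adjusted p = 0.057) or the first Cre+ library (0.19, adjusted p = 0.070). The fatty acid translocase gene Cd36 stood at 1911 ± 53.5 and 2120 ± 131 CPM (SD, n = 3 in each group) without overlap, but its log2 fold change of 0.15 was not called (adjusted p = 0.068 by edgeR) unless the filter on expression was dropped (0.23, adjusted p = 7.7e-04). Of the 12 tested genes of this list, 7 lay above 0 and 5 below. An unadjusted p below 0.05 in edgeR was found for 4, beside 19.1% of all genes. Of these, Slc27a1, named after its values were seen, was lower in Cre+ (-0.14, adjusted p = 0.22 by edgeR), with overlap between the groups. Acsl6 was below the filter.

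In the other lists no gene was called by edgeR, DESeq2 or limma. Droplet formation at the endoplasmic reticulum had 7 of 9 genes tested, of which 0 had an unadjusted p below 0.05. The genes with the highest CPM in this list, Aup1 (log2 fold change 0.01, adjusted p = 0.95 by edgeR) and Rab18 (-0.02, adjusted p = 0.87), did not pass the test, and Fitm1 and Hsd17b13 had at most 7 counts. Synthesis of diacylglycerol, the substrate of DGAT1, had 9 of 14 genes tested and again 0 with an unadjusted p below 0.05. Highest in CPM there were Gpat4 (log2 fold change 0.10, adjusted p = 0.36) and Agpat5 (0.11, adjusted p = 0.42), and Gpat2, Gpat3, Lpin3, Mogat1 and Mogat2 were below the filter.

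On the sterol ester side, Soat2, the enzyme of liver and intestine, had 68 to 131 counts per library and was below the filter, as was Ces1d. Nceh1 averaged 404.6 CPM over the Cre- libraries and 404.5 CPM over the Cre+ libraries, and the lysosomal acid lipase gene Lipa was at 3193 and 3274 CPM (log2 fold change 0.04, adjusted p = 0.65 by edgeR). The other hydrolases had 7 of 10 genes tested and 2 with an unadjusted p below 0.05, beside 19.1% of all genes. These were Abhd12, another monoacylglycerol hydrolase, at -0.16 on the log2 scale (adjusted p = 0.15 by edgeR), and Ddhd2, named after its values were seen, at 0.13 (SE 0.054, adjusted p = 0.21) without overlap between the groups. Abhd12 was called without the first Cre- library (-0.23, adjusted p = 0.044). Daglb, the highest of the list in CPM, was at -0.01 (adjusted p = 0.93). Pnpla1, Pnpla3 and Pnpla5 were below the filter. The remaining coat and CIDE genes were all 6 below it, with 6 to 49 counts for Plin1, 2 to 11 for Plin4, 0 to 14 for Plin5, 2 to 16 for Cidea, 70 to 107 for Cideb and 0 to 9 for Cidec. Plin2 and Plin3 were the only 2 of the 5 perilipin genes above the filter.

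For each member that was called, the tested genes with the most similar profile over the 6 libraries were found by the root mean square distance of log2 CPM centred on the Cre- mean. Dgat1 lay closest to Dand5 (distance 0.0519 log2 units) and Znrf1 (0.0685), neither of which was called (adjusted p = 0.066 by edgeR for both). Soat1 lay closest to Opa1 (0.0184) and Mdm2 (0.0193), and Mgll to Actr2 (0.0158) and Dnajc18 (0.0168). Of these neighbours Mdm2 (log2 fold change 0.20, adjusted p = 0.039 by edgeR) and Actr2 (0.23, adjusted p = 0.0052) were called. Genes picked this way have nearly the member's change by selection, so their changes and calls are not separate support.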

How the data were processed

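Counts, CPM and FPKM per Ensembl gene were deposited by the authors for each library. The counts are whole reads that the authors made on GRCm38, and the submitters' processing notes name STAR 2.7.9a and featureCounts 2.0.3. The deposited CPM are counts over the library total and the deposited FPKM are CPM over gene length, and both were read only to check units. cDNA was amplified from low-input RNA, so reads are not independent molecules. Genes were matched by identifier to GENCODE M21 (55227 of 55487), and 356 ribosomal genes were removed. The filter kept genes exceeding 1 CPM in 4 or more libraries, and these were compared with edgeR 4.0.16 (TMM, quasi-likelihood test, Benjamini-Hochberg adjustment over all 11429 genes, threshold 0.05) in R 4.3.3, without covariates. Reported CPM and FPKM use TMM library sizes, except for Dgat2, markers and other genes below the filter, which use library totals. SEs are the log2 fold change over the square root of F. The dispersion was 0.01002, a coefficient of variation of 10% between cultures. Alternatives were DESeq2 1.42.0 and its size factors, library totals, 2 other filters, limma 3.58.1 voomWithQualityWeights, a replicate block, and each library left out in turn. The fit was tested on simulated data. The members, gene lists and marker lists were chosen with earlier results of these data known. For 1 microglia marker, values are not reported here and it was left out of the sum. Named pathway genes are those called, those below the filter and up to 2 per list with the highest CPM. Promoter windows are RefSeq's (GRCm38.p6).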

Additional observations from a re-analysis of the deposited data

How the results depend on the processing

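The calls of Dgat1 and Mgll were kept in all 13 alternatives, and that of Soat1 in 10 of 13. The number of droplet genes called was 2 to 4 with 1 library left out and 3 or 4 otherwise. Among all genes, 579 were called, 1528 with no filter on expression, 886 by DESeq2 and 317 to 448 with 1 library left out. Among other pathway genes 1 to 2 were called with 1 library left out. The absence of a filter moved the median log2 fold change of the genes tested by 0.0785, and the other scalings moved it by less than 0.008. Under it the log2 fold change became 0.0528 for Lipe, 0.0575 for Rab18, 0.0796 for Nceh1 and 0.0671 for Daglb. That of Abhd5 was -0.00198 with DESeq2 and with its size factors. Nceh1 was at 0.00354 with library totals, 0.000289 with the filter at 3 libraries and 0.00221 with limma. With 1 library left out, ranges crossing 0 were -0.0198 to 0.0263 for Abhd5, -0.192 to 0.0771 for Lipe, -0.0121 to 0.0232 for Aup1, -0.0347 to 0.0411 for Nceh1 and -0.0464 to 0.0196 for Daglb, and for the log2 ratios -1.13 to 0.165 for Dgat1 to Dgat2, -0.000392 to 0.0381 for Plin2 to Plin3 and -0.149 to 0.0402 for Hilpda to Pnpla2. The causes were not tested. Same-numbered libraries did not deviate together (correlations -0.0445 to 0.0144). This gave no sign of pairing, but so few libraries cannot show that the cultures were unpaired. With the replicate number as a block, 430 genes were called, 415 of them among the 579, and the same 3 droplet genes. Among the droplet genes, counts were lowest for Dgat2 (12 to 61), and whether depth limits its comparison was not tested.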
